A study of Homo sapiens with 28 samples.

Results

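The genes described here differed from vehicle in opposite directions in HT-1080 cells given CLA18:2 and in HT-1080 cells given CLA18:3, both conjugated fatty acids. A gene was taken when its mean CPM (the count divided by the library's total and scaled to 1000000) was 2 or more over the 28 libraries and its log2 difference from DMSO was 0.3 or more in one fatty acid and -0.3 or less in the other. This log2 difference is the log2 ratio of the group mean CPM to the DMSO mean CPM, with 0.5 CPM added to each. Mitochondrially encoded genes were left out. Of the 60286 genes listed, 11934 reached the level minimum, and 71 of these met the rule. In 53 of them CLA18:2 was the higher and CLA18:3 the lower, and in 18 it was the other way round. The genes were chosen by their measured values in CLA18:2, CLA18:3 and DMSO, so those values are given as a description with no test.

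Conjugated fatty acids carry double bonds that alternate with single bonds, whereas in linoleic acid (LA) the double bonds are separated by a methylene group. Polyunsaturated fatty acids are built into membrane phospholipids, where their oxidation drives ferroptosis, a form of cell death that depends on iron. GPX4 reduces oxidised phospholipids and holds this death back, and RSL3 is a compound that inhibits GPX4.

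HT-1080 is a line established from a human fibrosarcoma, a tumour of connective tissue, and the labels give its genotype as WT in all samples. The 7 groups of 4 libraries each were DMSO (vehicle), 10 nM RSL3, 80 µM LA, 80 µM CLA18:2, 10 nM RSL3 with 80 µM LA (RSL3+LA), 10 nM RSL3 with 80 µM CLA18:2 (RSL3+CLA18:2), and 5 µM CLA18:3. Treatment was overnight, and the series' design text calls the replicates independent. The LA and CLA18:2 samples carry a run of sample numbers separate from that of the other groups. Whether they were handled apart is not given, and its part in their differences from DMSO was not tested. Fatty acid doses are in µM in that text and in mM in the sample labels; they are given here in µM. The dose of CLA18:3 differs from that of CLA18:2, so their values are set side by side. Cells given both RSL3 and CLA18:3 were not analysed here, so only the CLA18:2 direction can be looked at in libraries that did not choose the genes.

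Library totals ran from 16226270 to 24286824 counts. Between 18812 and 20653 genes had a count in the CLA18:3 libraries, against 23082 to 23636 in DMSO. The numbers were 19212 to 21462 in RSL3+CLA18:2, 22363 to 23198 in RSL3 and 21110 to 22727 in RSL3+LA. In CLA18:2 they were 21552 to 22801 and in LA 22003 to 23419. Mitochondrially encoded genes took 1.39% to 1.65% of counts in DMSO, 0.494% to 1.58% in LA, 0.344% to 1.62% in CLA18:2 and 0.383% to 1.78% in CLA18:3. They took 0.616% to 1.69% in RSL3, 1.64% to 2.18% in RSL3+LA and 0.290% to 1.92% in RSL3+CLA18:2, where 3 of the 4 libraries were at 0.345% or less. The coefficient of biological variation within a group (edgeR's common dispersion) was 4.50% in DMSO, 8.92% in CLA18:2, 15.3% in RSL3+CLA18:2 and 20.0% in CLA18:3. It was 7.31% in LA, 7.76% in RSL3 and 9.02% in RSL3+LA. Of 15 mesenchymal and fibroblast markers 12 reached the level minimum, with a summed level of 16133 to 19245 CPM per library. Of 16 blood cell markers none did (0 to 1.27 CPM summed, 3 of the 16 at 0 in every library), and of 16 epithelial markers 3 did (556 to 916 CPM summed, nearly all of it KRT8 and KRT18). CPM is a share of a library, so in these bulk samples fewer cells expressing a gene and less of its RNA per cell cannot be told apart.

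The 53 genes that were higher in CLA18:2 and lower in CLA18:3 had modest differences each way. Their log2 difference from DMSO ran from 0.30 to 0.92 in CLA18:2 (median 0.36) and from -0.71 to -0.30 in CLA18:3 (median -0.36). Over all 11934 genes the medians were -0.01 and -0.06. All 4 CLA18:2 libraries lay above all 4 DMSO libraries in 36 of the 53, where 25.5% of the 11934 genes did so, and all 4 CLA18:3 libraries lay below DMSO in 30, where 25.5% did so. Both held in 22 of the 53, and the share of all genes with both was not worked out. These counts follow from how the genes were chosen.

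The 18 genes of the opposite kind ran from -0.78 to -0.31 in CLA18:2 (median -0.39) and from 0.31 to 1.91 in CLA18:3 (median 0.41). All 4 CLA18:2 libraries lay below DMSO in 9 of the 18 (26% of the 11934 genes) and all 4 CLA18:3 libraries lay above DMSO in 9 (16.5%), with both in 7. The choice of genes favours these counts too. The plot of the 2 differences shows how few genes fall in these corners. Taken alone, 2320 genes were at 0.3 or more in CLA18:2 and 2442 at -0.3 or less in CLA18:3, and 2286 and 1551 were past the limits of the opposite kind. Both differences are taken from the same DMSO mean, so its sampling error moves them the same way. Its part in how few genes fall in the corners was not tested.

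**Figure D1:**
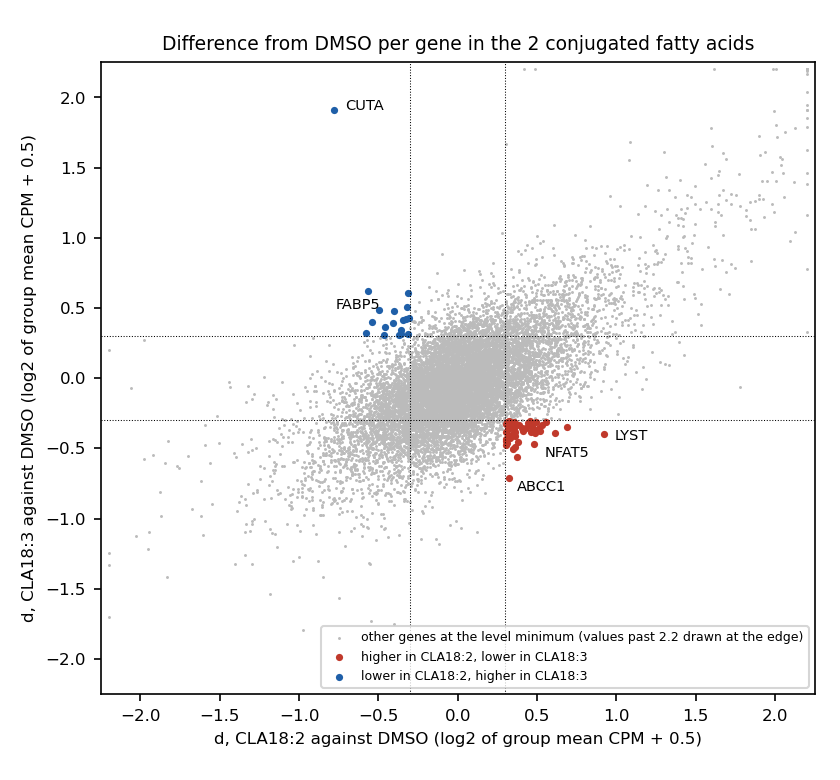
Each dot is a gene with a mean of 2 CPM or more (11934 genes); the horizontal axis is its log2 difference from DMSO in CLA18:2 and the vertical axis that in CLA18:3, on group mean CPM with 0.5 added, with dotted lines at -0.3 and 0.3. The 53 red and 18 blue dots are the genes that passed the limits in opposite directions; values past 2.2 are drawn at the edge.

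The number of genes in each direction depended on how libraries were scaled. With TMM scaling (the trimmed mean of M values of edgeR) in place of library totals, 26 genes of the larger kind met the rule, all of them among the 53, and 35 genes of the smaller kind did, 17 of them among the 18. The median log2 difference of all genes in CLA18:3 was -0.06 by totals and 0.01 with TMM. When each DMSO, CLA18:2 and CLA18:3 library was left out in turn, 9 of the 53 met the rule in all 12 cases: ARRB1, CHD6, ITGAV, MYO18A, NFAT5, RNF123, SECISBP2L and 2 genes with no symbol. Of the 18, 6 did so: DMTN, FABP5, OLMALINC, SLAMF9 and 2 with no symbol. Without CLA18:2 replicate 1 the larger kind numbered 35 genes, 31 of them among the 53. That library was the highest of its group in 32 of the 53 genes, and had the lowest mitochondrial share of its group (0.344%), whose part in the result was not tested. CLA18:3 replicate 4 was the lowest of its group in 26 of the 53.

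**Figure D2:**
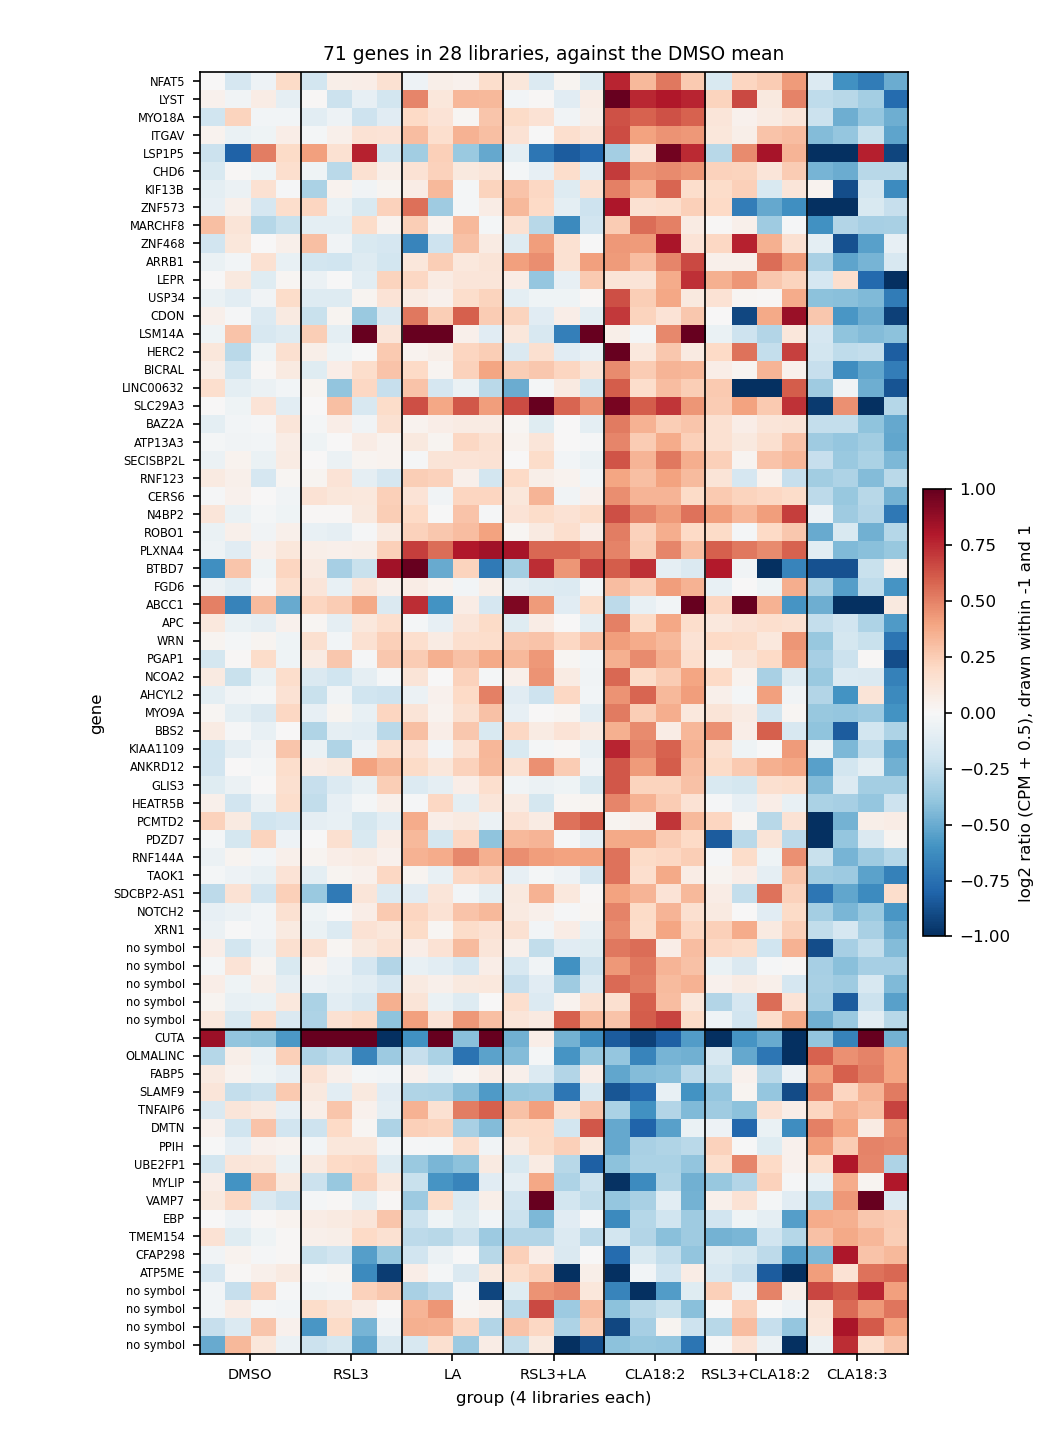
Rows are the 71 genes (53 above the line, 18 below; 9 have no symbol) and columns the 28 libraries in 7 groups of 4. Colour is the log2 ratio of a library's CPM to the DMSO mean, with 0.5 CPM added, red above and blue below, drawn within -1 and 1; CLA18:2 and CLA18:3 were chosen to differ, and the LA and RSL3+CLA18:2 columns are mostly pale red in the upper block.

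The other groups mostly lay between CLA18:2 and CLA18:3, which the choice of genes on those groups favours. CLA18:2 gave the highest of the 7 group means in 45 of the 53 genes and CLA18:3 the lowest in 52. The rule did not use LA, but LA is compared with the same DMSO libraries and shares its run of sample numbers with CLA18:2. In LA the median of the 53 was 0.14, with 47 of the 53 above 0, beside 0.02 and 6553 of the 11934 genes. Of the 53, 9 had no overlap with DMSO (13.3% of the 11934 genes lay above DMSO in this way). In RSL3+CLA18:2 the median difference from DMSO was 0.15, with 43 of the 53 above 0 (5388 of the 11934 genes) and 10 with no overlap (19.5% of all). In RSL3 alone the median was 0.02, with 1 gene above DMSO without overlap and 2 below (2.94% and 4.02% of all). In RSL3+LA it was 0.06, with 6 above and 1 below (13% and 10.2% of all). Among the 18 genes CLA18:3 gave the highest of the 7 means in 15 and CLA18:2 the lowest in 14, which the choice of genes also favours. Their medians were -0.05 in LA, -0.15 in RSL3+CLA18:2, 0.02 in RSL3 and -0.05 in RSL3+LA. In LA 2 of the 18 lay below DMSO without overlap and 1 above (9.44% and 13.3% of all). The 53 and the 18 are ordered below by what their products do; that order was made after their values were seen and only arranges the text.

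Several of the 53 encode cell-surface receptors and adhesion molecules. ITGAV, the integrin alpha V subunit that binds fibronectin and vitronectin (chr2:186590065-186680901, GRCh38, plus strand, protein coding), had 258, 239, 244 and 263 CPM in DMSO and 395, 332, 343 and 340 CPM in CLA18:2. In CLA18:3 it had 186, 192, 215 and 174 CPM. Every CLA18:2 library was above and every CLA18:3 library below all DMSO libraries, and the log2 differences were 0.49 and -0.39. LA alone also lay above DMSO, at 283 to 320 CPM. ITGAV is the only gene of a list of 54 measured extracellular matrix and adhesion genes to meet the rule, and that list's medians were 0.02 in CLA18:2 and -0.13 in CLA18:3.

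NOTCH2, a receptor read by neighbouring cells' ligands, averaged 347 ± 26.5 CPM in DMSO, 428 ± 47.2 in CLA18:2 and 256 ± 18.8 in CLA18:3 (SD, n = 4 each), and is close to the limit with 0.30 and -0.43. ROBO1, the receptor of the guidance cue SLIT, averaged 62.1 ± 2.67, 78.3 ± 7.93 and 48.6 ± 5.74 CPM in the same groups, and in LA 76.7 ± 3.89 CPM, near its CLA18:2 level. PLXNA4, a plexin that takes part in semaphorin signalling, had its highest mean in LA. Its 4 LA libraries stood at 110, 100, 119 and 122 CPM, those of CLA18:2 at 96.1, 80.6, 95.2 and 83.9 CPM, and those of DMSO at 65.5, 62.8, 69.9 and 73.3 CPM. No LA or CLA18:2 library overlapped DMSO, and the CLA18:3 libraries (63.1, 49.9, 50.6 and 52.0 CPM) overlapped DMSO in replicate 1. CDON, a co-receptor of Hedgehog ligands, had 0.35 and -0.37, and also stood higher in LA (0.42). LEPR, the leptin receptor, had 0.36 and -0.41 at 1.26 to 6.72 CPM.

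ARRB1 encodes beta-arrestin 1, which binds activated G protein-coupled receptors and ends their signalling. Its DMSO libraries had 10.6, 10.9, 12.4 and 10.5 CPM, its CLA18:2 libraries 15.1, 13.9, 15.8 and 17.8 CPM, and its CLA18:3 libraries 8.76, 7.57, 7.91 and 9.90 CPM. The 3 groups did not overlap.

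Transcription and chromatin factors included the gene of the 53 that stood farthest inside both limits. This was NFAT5, the transcription factor that answers to hypertonic stress (chr16:69565094-69704666, GRCh38, plus strand, protein coding). It had 40.5, 36.0, 39.0 and 46.1 CPM in DMSO, 68.9, 50.7, 58.5 and 48.7 CPM in CLA18:2, and 36.7, 26.5, 24.7 and 28.5 CPM in CLA18:3. All CLA18:2 libraries were above DMSO, and CLA18:3 replicate 1 overlapped it. The log2 differences were 0.48 and -0.47, against 0.03 in RSL3 and 0.06 in LA.

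CHD6, an ATP-dependent chromatin remodeller, had 18.6, 20.9, 20.1 and 23.4 CPM in DMSO, 34.0, 28.5, 29.03 and 28.3 CPM in CLA18:2 and 14.9, 14.5, 17.03 and 17.01 CPM in CLA18:3. The 3 groups did not overlap. CHD6 is the one gene of 47 measured chromatin enzyme genes to meet the rule (list medians 0.09 and -0.26). BAZ2A, a subunit of the complex that silences ribosomal RNA genes, averaged 114 ± 7.33 CPM in DMSO, 146 ± 12.9 in CLA18:2 and 89.97 ± 8.24 in CLA18:3 (SD, n = 4 each), again with no overlap. BICRAL, a subunit of a BAF-type remodeller, had 0.35 and -0.51, and NCOA2, a coactivator of nuclear receptors, 0.36 and -0.32. GLIS3, a zinc finger transcription factor, had 0.35 and -0.31, and ANKRD12, an ankyrin repeat protein of the nucleus, 0.49 and -0.31. The zinc finger genes ZNF573 (0.37 and -0.56) and ZNF468 (0.47 and -0.36) were at 1.07 to 6.72 CPM over all libraries, and both overlapped DMSO in CLA18:3.

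Enzymes that add or remove ubiquitin formed another part. USP34, a deubiquitinase, had 87.2, 84.8, 89.1 and 104 CPM in DMSO, 143, 109, 120 and 97.6 CPM in CLA18:2, and 68.7, 68.0, 67.2 and 56.1 CPM in CLA18:3. CLA18:2 replicate 4 overlapped DMSO, and no CLA18:3 library did. RNF123, a ubiquitin ligase, averaged 33.0 ± 2.54 CPM in DMSO, 42.3 ± 1.51 in CLA18:2 and 26.0 ± 1.29 in CLA18:3 (SD, n = 4 each), with no overlap. RNF144A, also a ligase, had 0.30 and -0.33, and stood higher in LA (0.39) and RSL3+LA (0.42) than in CLA18:2. HERC2, a very large ligase, had 0.43 and -0.35, and rested in part on CLA18:2 replicate 1 at 37.0 CPM against 19.1 to 21.8 CPM in the other 3 libraries of that group. MARCHF8, a membrane-bound ligase, had 0.36 and -0.38.

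Genes of membrane traffic, motors and the cytoskeleton included LYST, the lysosomal trafficking regulator that is mutated in Chediak-Higashi syndrome (chr1:235661041-235883640, GRCh38, minus strand, protein coding). It had 8.15, 7.68, 8.32 and 7.35 CPM in DMSO, 20.0, 13.6, 14.1 and 13.7 CPM in CLA18:2 and 6.51, 6.40, 6.13 and 4.41 CPM in CLA18:3, from 101 to 419 counts per library over the series. The 3 groups did not overlap, and 0.92 in CLA18:2 was the largest difference among the 53, against 0.32 in LA and -0.40 in CLA18:3. MYO18A, an unconventional myosin, had 23.6, 31.7, 26.7 and 26.7 CPM in DMSO. Its CLA18:2 libraries lay at 42.6, 41.1, 42.6 and 41.1 CPM and its CLA18:3 libraries at 23.3, 19.3, 20.6 and 19.2 CPM, all outside the DMSO range.

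KIAA1109, a lipid transfer protein that bridges membranes, had 0.56 and -0.31. KIF13B, a kinesin, had 0.41 and -0.37, and MYO9A, an unconventional myosin, 0.32 and -0.43. TAOK1, a kinase that acts on microtubules and stress signalling, had 0.30 and -0.47, and FGD6, an exchange factor for Cdc42, 0.33 and -0.42. HEATR5B, which works with clathrin adaptors, had 0.32 and -0.31. BBS2, a subunit of the BBSome of cilia, had 0.31 and -0.41. PDZD7, a scaffold of sensory hair cells, had 0.31 and -0.45 at 0.281 to 3.54 CPM, where single counts weigh heavily.

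Lipid enzymes and transporters were fewer. CERS6, a ceramide synthase, averaged 46.2 ± 1.05 CPM in DMSO, 58.6 ± 4.55 in CLA18:2 and 36.3 ± 2.47 in CLA18:3 (SD, n = 4 each), with no overlap. It is the one gene of 35 measured glycosphingolipid and phospholipid genes in either direction. ATP13A3, a polyamine transporter, averaged 514 ± 18.0 CPM in DMSO, 652 ± 54.2 in CLA18:2 and 390 ± 20.9 in CLA18:3 (SD, n = 4 each), also with no overlap. PGAP1, which trims GPI anchors, had 0.34 and -0.32, and SLC29A3, a nucleoside transporter of lysosomes, 0.69 and -0.34. ABCC1, an exporter of glutathione conjugates, had 0.32 and -0.71, the lowest value of the 53 in CLA18:3, but it varied widely in all groups (2.62 to 6.55 CPM in DMSO) and 1 library (CLA18:2 replicate 4, 10.6 CPM) gave its higher mean.

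Genes of RNA and DNA metabolism were XRN1, the cytoplasmic exonuclease (0.32 and -0.30), SECISBP2L, a relative of the protein that binds selenocysteine insertion elements (0.47 and -0.34), WRN, a helicase of DNA repair (0.32 and -0.36), N4BP2, a nuclease domain protein (0.53 and -0.33), and LSM14A, a protein of processing bodies (0.51 and -0.35). SECISBP2L had 40.8, 43.6, 40.8 and 45.2 CPM in DMSO, 66.2, 54.0, 61.8 and 55.0 CPM in CLA18:2 and 36.2, 32.9, 34.2 and 31.0 CPM in CLA18:3, with no overlap between the 3 groups. LSM14A depended on single libraries: its higher CLA18:2 mean came largely from replicate 4 at 11.7 CPM against 4.79 to 6.96 CPM in the other 3, and LA replicates 1 and 2 had 21.1 and 15.7 CPM against 5.05 and 4.45 CPM. The remaining members with symbols were APC, the brake on Wnt signalling (0.32 and -0.32), AHCYL2 (0.45 and -0.32), PCMTD2 (0.31 and -0.31), BTBD7 (0.33 and -0.42), and the noncoding genes LINC00632 (0.34 and -0.41), SDCBP2-AS1 (0.30 and -0.38) and LSP1P5 (0.46 and -0.38). GENCODE classes LINC00632 and SDCBP2-AS1 as antisense and LSP1P5 is named as a pseudogene, and whether the counting used strand is not given in the sources used here, so reads of a partner or parent gene cannot be told apart from theirs.

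Among the 18 genes that were lower in CLA18:2 and higher in CLA18:3, several handle lipids. FABP5, a cytosolic carrier of fatty acids, had 40.5, 39.0, 36.9 and 36.0 CPM in DMSO, 26.4, 28.05, 28.4 and 31.7 CPM in CLA18:2 and 50.7, 57.8, 54.5 and 50.2 CPM in CLA18:3. The 3 groups did not overlap, and LA (36.6 to 40.1 CPM) and RSL3 (37.4 to 42.1 CPM) stayed within or beside the DMSO range. The log2 differences were -0.40 and 0.48. FABP5 has processed pseudogenes, and FABP5P7 was just outside the limit with -0.29 and 0.41, so reads may be shared between them. FABP5 is the one gene of 25 measured PPAR target and fatty acid oxidation genes to meet the rule. That list's medians were 0.40 and 0.18, so FABP5 lay on the other side of its list in CLA18:2.

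EBP, the sterol isomerase of cholesterol synthesis (chrX:48521158-48528716, GRCh38, plus strand, protein coding), had 22.0, 21.2, 22.1 and 22.6 CPM in DMSO, 14.01, 18.0, 19.1 and 17.1 CPM in CLA18:2 and 28.6, 28.3, 26.6 and 26.3 CPM in CLA18:3. The 3 groups did not overlap, and the log2 differences were -0.36 and 0.31. Of 24 measured cholesterol synthesis genes and SREBP2 targets only EBP met the rule. The list's medians were -0.84 in CLA18:2 and -0.12 in CLA18:3, so EBP lay on its list's side in CLA18:2 and on the other in CLA18:3. MYLIP, the ligase that marks the LDL receptor for degradation and a target of the sterol receptor LXR, had -0.58 and 0.32 at 1.39 to 6.02 CPM, and overlapped DMSO in both.

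TMEM154, a transmembrane protein of little-known function (chr4:152618632-152680165, GRCh38, minus strand, protein coding), had 59.5, 49.5, 52.1 and 54.2 CPM in DMSO. It had 47.2, 43.7, 40.2 and 41.8 CPM in CLA18:2 and 66.0, 70.2, 67.8 and 63.8 CPM in CLA18:3. The 3 groups did not overlap. LA gave 44.9, 44.2, 46.3 and 41.8 CPM, also below every DMSO library, so that the LA and CLA18:2 differences (-0.28 and -0.31) were close.

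PPIH, a cyclophilin of the spliceosome, had 24.7, 23.5, 25.6 and 25.5 CPM in DMSO, 17.2, 19.7, 20.1 and 20.5 CPM in CLA18:2 and 33.1, 29.6, 35.2 and 34.8 CPM in CLA18:3, with no overlap. TNFAIP6, a secreted protein that binds hyaluronan, had -0.41 and 0.40 with no overlap with DMSO either way, and stood as high in LA (0.41) as in CLA18:3. OLMALINC, a long noncoding RNA, had 2.45, 3.23, 2.95 and 3.73 CPM in DMSO, 2.25, 1.77, 2.10 and 2.08 CPM in CLA18:2 and 4.92, 4.44, 4.56 and 4.23 CPM in CLA18:3, from 27 to 105 counts per library. It was below the DMSO mean in the other 4 treated groups too (-0.58 to -0.34), so CLA18:3 alone was above DMSO. SLAMF9, a receptor of the SLAM family, had -0.54 and 0.40, and DMTN, dematin, a protein that bundles actin, had -0.46 and 0.37.

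ATP5ME, subunit e of the mitochondrial ATP synthase, had -0.31 and 0.43, and its lower CLA18:2 mean came from replicate 1 at 6.22 CPM against 17.7 to 21.3 CPM in the other 3 libraries. It is the one gene of 72 measured respiratory chain genes to meet the rule (list medians 0.07 and 0.27). CFAP298, a protein needed for cilia, had -0.37 and 0.31, with CLA18:3 replicate 1 (9.74 CPM) below DMSO and the other 3 above it. CUTA, a protein tied to the membrane anchoring of acetylcholinesterase, had the largest log2 difference of the 71 in CLA18:3, 1.91, and this was a single library: replicate 3 had 32.0 CPM and the other 3 had 1.40, 1.07 and 1.31 CPM. VAMP7, a vesicle fusion protein, likewise rested on CLA18:3 replicate 3 (7.49 CPM against 1.69 to 3.08 CPM). UBE2FP1 is a processed pseudogene, as are 2 of the 4 genes with no symbol, and their parents' reads could have been counted there.

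**Figure D3:**
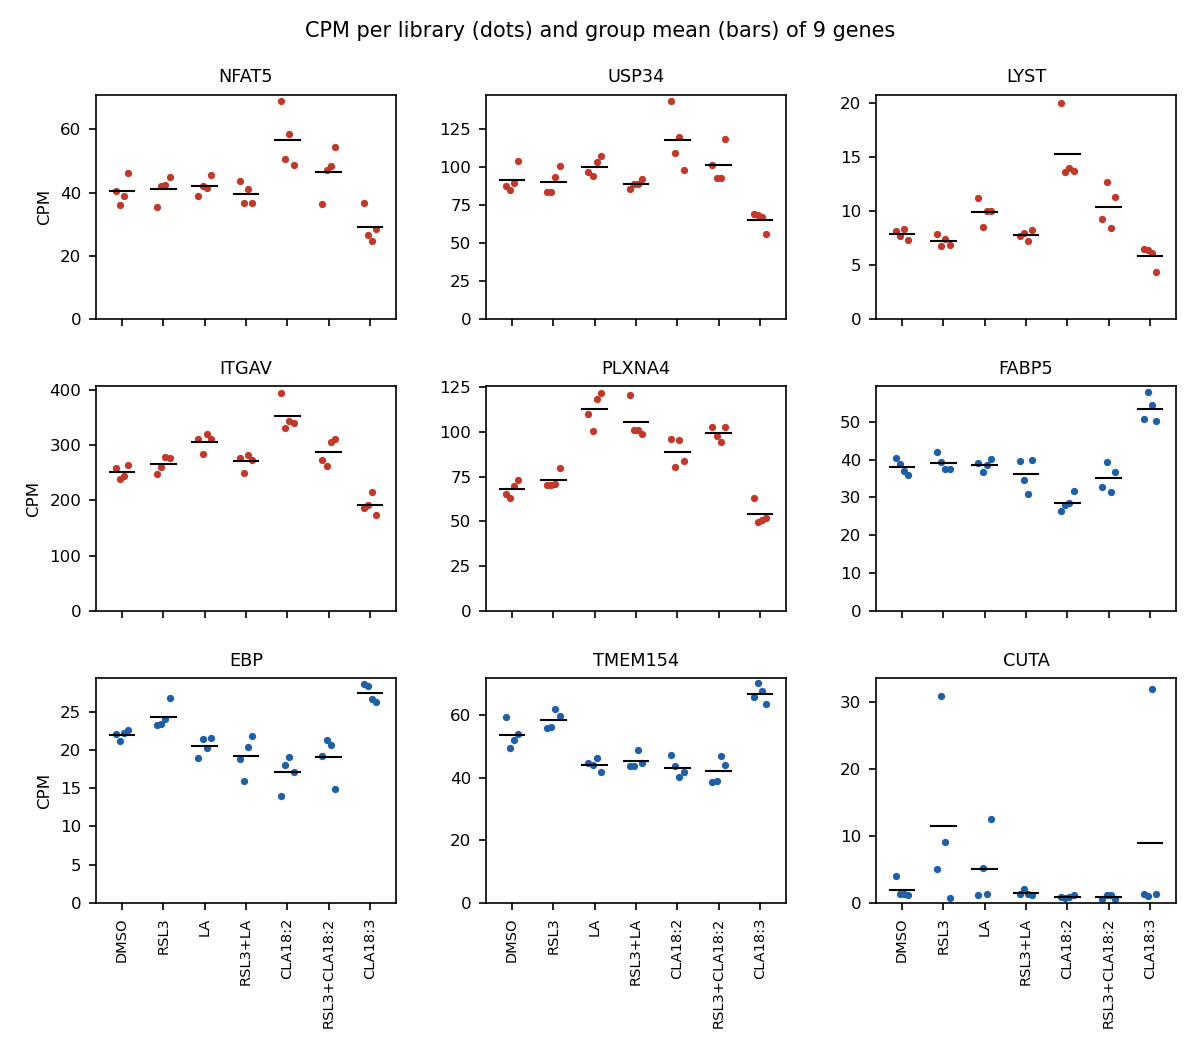
CPM in each library (dots) and the group mean (bars) of 9 of the 71 genes in the 7 groups of 4 libraries; red marks genes higher in CLA18:2 and lower in CLA18:3, blue the opposite. NFAT5, USP34, LYST and ITGAV were highest in CLA18:2, PLXNA4 in LA, and FABP5, EBP and TMEM154 in CLA18:3, while CUTA followed single libraries.

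Libraries with RSL3 were not used to choose the genes, apart from the level minimum, so the effect of CLA18:2 was tested there. RSL3+CLA18:2 was compared with RSL3 by edgeR's quasi-likelihood test on the counts, with Benjamini-Hochberg adjustment over 16325 genes at 0.05. Of the 53 genes that were higher in CLA18:2 alone, 11 rose and none fell, where 15.9% of all genes tested rose and 14.5% fell. Among the 11934 genes at the level minimum 20.5% rose and 18.2% fell, so the 20.8% of the 53 that rose is near the background. At an unadjusted p under 0.05, 15 of the 53 (28.3%) were higher and 0 lower, beside 19.8% and 19.5% of all genes tested. Here and below, shares at an unadjusted p are set beside all genes tested, which include genes under the level minimum. None was worked out for genes at the level minimum. The median log2 fold change of the 53 was 0.13, with 44 above 0, beside -0.01 and 7925 of the 16325 genes tested. All 4 RSL3+CLA18:2 libraries lay above all 4 RSL3 libraries in 8 of the 53 (15.1%, beside 17.6% of the 11934 genes). They lay below in 0 (17.4% of the 11934). DESeq2 and limma voom, run as alternatives, also called none of the 53 lower. Leaving out 1 library gave 0 to 1 lower, and the fit with no filter on low counts gave 1.

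Of the 18 genes, 3 fell and none rose. The 16.7% that fell is near the background, which was 14.5% of all genes tested and 18.2% of those at the level minimum. At an unadjusted p under 0.05, 3 were lower (16.7%, beside 19.5% of all) and 0 higher (19.8% of all). Their median log2 fold change was -0.09, with 11 below 0, beside 8400 of the 16325 genes tested. Without overlap, 2 of the 18 lay below RSL3 (11.1%, beside 17.4% of the 11934 genes) and 0 above (17.6% of the 11934). Each gene's interval is drawn in the plot of RSL3+CLA18:2 against RSL3.

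**Figure D4:**
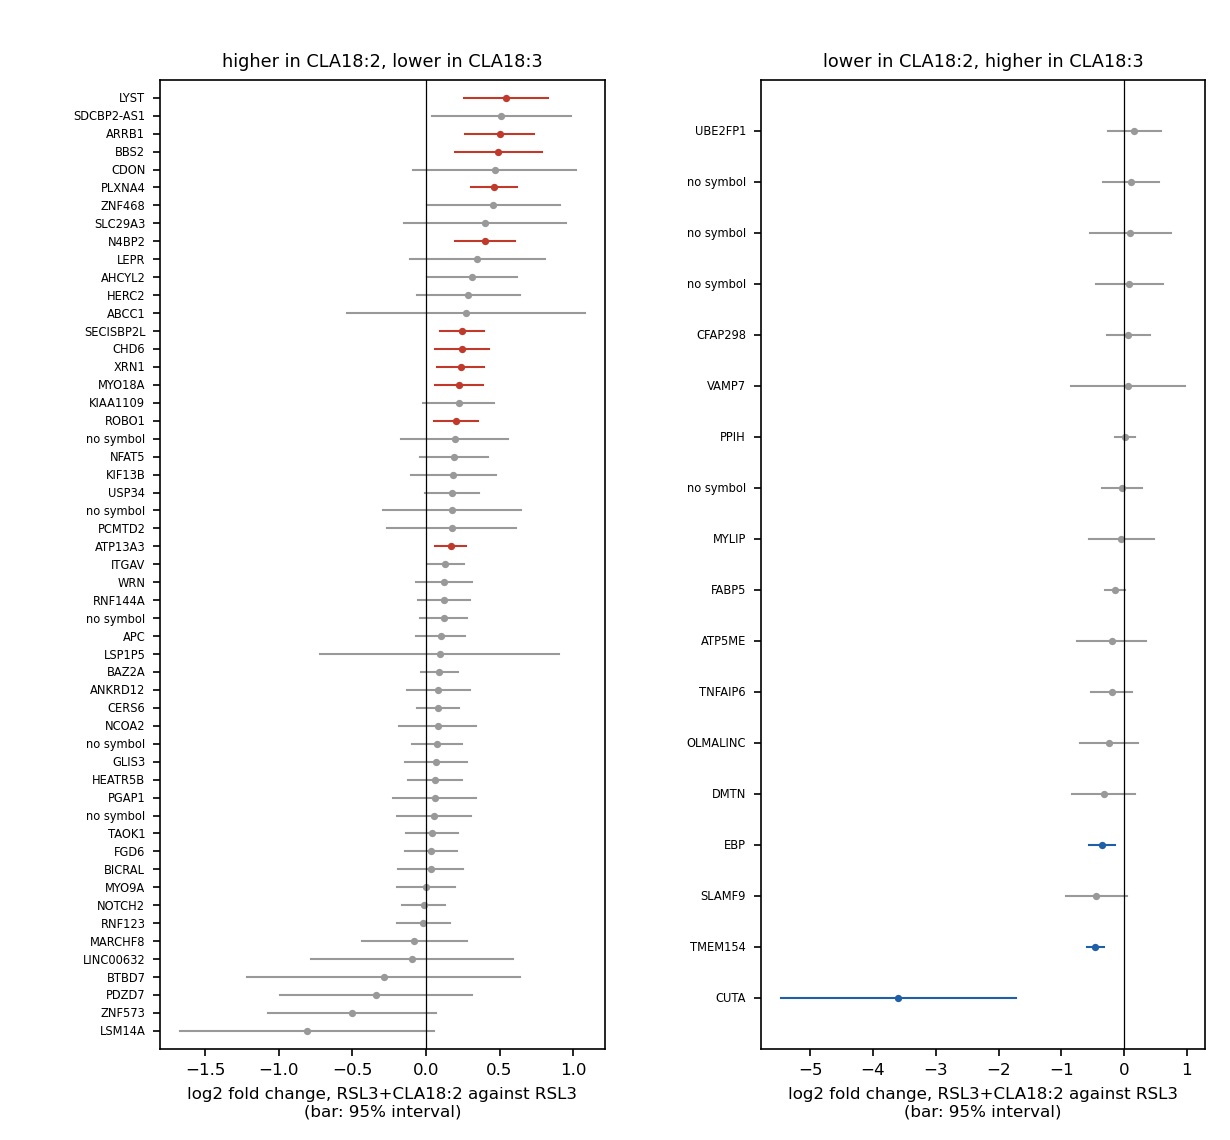
Log2 fold change of RSL3+CLA18:2 against RSL3 (4 libraries each) with its 95% interval for the 53 genes (left) and the 18 genes (right), from the fit of all 28 libraries; coloured points passed an adjusted p of 0.05 over 16325 genes and grey points did not. The 11 coloured points on the left lie above 0 and the 3 on the right below 0; the horizontal scales differ.

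PLXNA4 had the smallest p of the 53. It stood at 70.5, 70.3, 70.7 and 80.1 CPM in RSL3 and at 103, 97.9, 94.4 and 102 CPM in RSL3+CLA18:2, with no overlap, and rose by 0.46 ± 0.08 on the log2 scale (SE, edgeR adjusted p = 1.08e-05). ARRB1 stood at 9.74, 9.61, 10.1 and 9.75 CPM against 11.6, 11.5, 16.6 and 15.1 CPM and rose by 0.50 ± 0.12 (edgeR adjusted p = 0.000907). LYST stood at 7.92, 6.73, 7.42 and 6.87 CPM against 9.25, 12.7, 8.44 and 11.3 CPM and rose by 0.54 ± 0.14 (edgeR adjusted p = 0.00291). In none of these 3 genes did the groups overlap.

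N4BP2 rose by 0.40 ± 0.10 (edgeR adjusted p = 0.00214), also with no overlap, from 20.2 to 23.9 CPM in RSL3 to between 25.4 and 32.7 CPM. SECISBP2L rose by 0.25 ± 0.07 (edgeR adjusted p = 0.00852), with the lowest treated library just under the highest RSL3 library. The other genes that rose were BBS2 (0.49), CHD6 (0.25), XRN1 (0.24), MYO18A (0.23), ROBO1 (0.20) and ATP13A3 (0.17). LYST, N4BP2, PLXNA4, ARRB1 and SECISBP2L passed in all 15 alternative fits, and CHD6 failed in 8 of them. ATP13A3 did not pass without RSL3+CLA18:2 replicate 4 (edgeR adjusted p = 0.0612), nor BBS2 without RSL3+CLA18:2 replicate 3 (0.0568), and without RSL3+CLA18:2 replicate 4 the number that rose was 7. XRN1, MYO18A and ROBO1 each failed without any of 3 or more libraries, up to an adjusted p of 0.111. NFAT5 and ITGAV did not pass: their intervals were -0.04 to 0.42 and 0.00 to 0.26. The largest value below 0 was that of LSM14A, -0.81 with an interval of -1.67 to 0.05.

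TMEM154 stood at 55.8, 56.2, 62.0 and 59.9 CPM in RSL3 and at 38.6, 39.1, 47.0 and 44.1 CPM in RSL3+CLA18:2. It fell by 0.46 ± 0.07 on the log2 scale (SE, edgeR adjusted p = 1.41e-06), with no overlap, and passed in all 15 alternative fits. EBP stood at 23.2, 23.4, 24.04 and 26.8 CPM against 19.2, 21.3, 20.7 and 14.9 CPM, and fell by 0.35 ± 0.10 (edgeR adjusted p = 0.0078), with no overlap. Without RSL3+CLA18:2 replicate 4 EBP no longer passed (edgeR adjusted p = 0.0588, the highest over its alternatives, which began at 0.00373). CUTA also passed, but its RSL3 libraries had 5.02, 30.9, 9.09 and 0.746 CPM, and its log2 fold change of -3.60 (interval -5.47 to -1.72) became -2.39 without RSL3 replicate 2. It was not called with limma voom (adjusted p = 0.114; over its alternatives 3.3e-46 to 0.114). FABP5, at 42.1, 39.5, 37.6 and 37.4 CPM against 32.7, 39.3, 31.5 and 36.9 CPM, did not pass; its log2 fold change was -0.14 with an interval of -0.30 to 0.02.

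LA with RSL3 was compared with the same RSL3 libraries, which gives the fatty acid with unconjugated double bonds at the same dose. Because RSL3 is shared, the values are given side by side. Of the 53 genes 3 rose and none fell (3.78% of all genes tested rose and 5.8% fell, and 5.03% and 7.85% of those at the level minimum), and at an unadjusted p under 0.05 there were 6 higher (11.3%, beside 9.38% of all) and 4 lower (7.55%, beside 11.6%). PLXNA4 rose by 0.49 ± 0.08 (edgeR adjusted p = 1.84e-05), ARRB1 by 0.52 ± 0.12 (edgeR adjusted p = 0.00216) and RNF144A by 0.33 ± 0.09 (edgeR adjusted p = 0.0105). Their RSL3+LA libraries lay at 98.7 to 121, 12.4 to 15.6 and 31.9 to 33.5 CPM, above every RSL3 library. The median of the 53 was -0.01, and 7 lay above RSL3 without overlap and 0 below, where 11.4% and 8.19% of the 11934 genes did.

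Of the 18 genes the same 3 as above, TMEM154, EBP and CUTA, fell and none rose, which is 16.7%, where 5.8% of all genes tested and 7.85% of those at the level minimum fell. TMEM154 fell by 0.41 ± 0.07 (edgeR adjusted p = 4.18e-05) and EBP by 0.38 ± 0.10 (edgeR adjusted p = 0.0118). At an unadjusted p under 0.05 there were 5 lower (27.8%, beside 11.6% of all) and 2 higher (11.1%, beside 9.38%). CUTA no longer passed without RSL3 replicate 2, the library with 30.9 CPM (log2 fold change -1.79), nor without RSL3+LA replicate 1, 3 or 4. EBP did not pass without RSL3+LA replicate 2 or without RSL3 replicate 4.

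The difference between CLA18:2 and LA at 80 µM was tested directly with RSL3 present, as RSL3+CLA18:2 against RSL3+LA. Of the 53 genes 12 (22.6%) were higher with CLA18:2 and none lower. Of all genes tested 14.1% were higher and 12% lower, and of those at the level minimum 18.4% and 14.6%. At an unadjusted p under 0.05, 20 were higher (37.7%, beside 18.6% of all) and 1 lower (1.89%, beside 17.6%). The median log2 fold change of the 53 was 0.14, with 40 above 0, beside 7802 of the 16325 genes tested. Without overlap, 5 of the 53 lay above RSL3+LA (9.43%, beside 12.3% of the 11934 genes) and 0 below (16.8% of the 11934).

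LYST was 0.47 ± 0.14 higher with CLA18:2 (edgeR adjusted p = 0.0109), with RSL3+LA libraries at 7.70, 7.94, 7.24 and 8.30 CPM, all under the 4 RSL3+CLA18:2 libraries. N4BP2 was 0.37 ± 0.10 higher (edgeR adjusted p = 0.0054), SECISBP2L 0.25 ± 0.07 (edgeR adjusted p = 0.00801), BAZ2A 0.22 ± 0.06 (edgeR adjusted p = 0.00642) and ATP13A3 0.19 ± 0.05 (edgeR adjusted p = 0.0049). CHD6, XRN1, USP34, APC, LSP1P5 and 2 genes with no symbol were also higher. BAZ2A, ATP13A3, N4BP2 and SECISBP2L passed in all 15 alternative fits. CHD6 failed in 8 of the 15, APC in 6, USP34 and LSP1P5 in 5 each, and the 2 genes with no symbol in 5 and 4. LYST and XRN1 did not pass without RSL3+CLA18:2 replicate 2 (edgeR adjusted p = 0.0652 and 0.0557), and without RSL3+LA replicate 3 the number that were higher was 7. PLXNA4 and ARRB1 did not differ between CLA18:2 and LA past the threshold, and their intervals were -0.18 to 0.12 and -0.25 to 0.21. Of the 18 genes 1 was higher with CLA18:2 (5.56%, beside 14.1% of all genes tested and 18.4% of those at the level minimum). None was lower (12% and 14.6%). UBE2FP1 was the gene that passed, 0.60 higher, against the direction of its difference in CLA18:2 alone. It failed without RSL3+CLA18:2 replicate 2 or RSL3+LA replicate 3 or 4. For the 18 at an unadjusted p under 0.05 there were 3 lower (16.7%, beside 17.6% of all) and 1 higher (5.56%, beside 18.6%). TMEM154 (interval -0.19 to 0.09) and EBP (-0.17 to 0.24) did not pass.

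The 2 kinds of gene differed in the size of their transcripts, which the rule did not use. In GENCODE release 29, 50 of the 53 and all 18 were matched by gene identifier, name or synonym. The 45 protein-coding genes of the larger kind had a median longest transcript of 8430 nt and a median of 20 exons over 140 kb, against 3862 nt, 9 exons and 35.4 kb for the 10768 protein-coding genes at the level minimum. Of the 45, 24 (53.3%) had a transcript of 8 kb or more, where 9.69% of all did, and none was under 2 kb. The 12 protein-coding genes of the smaller kind had a median of 1600 nt and 5.5 exons, and 7 of them were under 2 kb. TMEM154, at 10698 nt, was the exception. Over the same protein-coding genes the median GC content of the exons was 42.3% in the larger kind, 48.7% in the smaller and 47.6% in all.

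The CLA18:3 libraries differed from DMSO by transcript length over all genes. The median log2 difference in CLA18:3 was 0.26 for genes under 1 kb, 0.14 for 1 to 2 kb, -0.02 for 2 to 4 kb, -0.15 for 4 to 8 kb and -0.21 for 8 kb or more. All 4 libraries showed this order at the ends, from 0.22 to 0.33 under 1 kb and from -0.28 to -0.17 at 8 kb or more. In CLA18:2 the medians were between -0.02 and 0.08, and at 8 kb or more replicate 1 stood highest at 0.185. When each gene's difference was taken from the median of genes of similar transcript length, 15 genes met the rule in each direction. Of the 53, 9 were still among them, and of the 18, 7. The order of lengths turned round: the median longest transcript was 1997 nt in the 15 genes higher in CLA18:2 and 5079 nt in the 15 higher in CLA18:3. This setting was added after the lengths were seen.

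**Figure D5:**
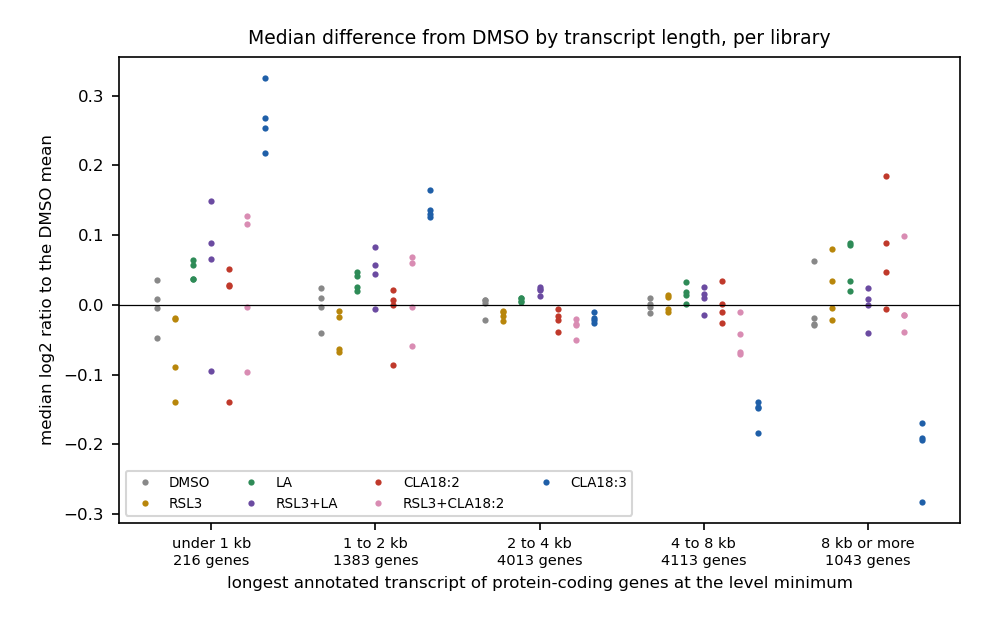
Median log2 ratio of a library's CPM to the DMSO mean over protein-coding genes at the level minimum, in 5 classes of longest annotated transcript; each dot is a library, coloured by group. The 4 CLA18:3 libraries run from 0.22 to 0.33 in the shortest class to between -0.28 and -0.17 in the longest, while the other groups stay within -0.14 and 0.185.

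The starts of 4 genes that passed the test of RSL3+CLA18:2 against RSL3 are shown so that their control regions can be read beside the values: LYST and PLXNA4, which rose, and EBP and TMEM154, which fell. RefSeq promoters (GRCh38.p14, from 250 bases before to 50 after the start) were found for 39 of the 53 genes, 11 of the 18 and 9374 of the genes at the level minimum. Capitals mark matches, on either strand, to any of the motifs listed after them. They are LYST at chr1:235883664-235883963, PLXNA4 at chr7:132576421-132576720, TMEM154 at chr4:152679948-152680247 (all minus strand) and EBP at chrX:48521558-48521857 (plus strand), each written along the gene's own strand.
LYST: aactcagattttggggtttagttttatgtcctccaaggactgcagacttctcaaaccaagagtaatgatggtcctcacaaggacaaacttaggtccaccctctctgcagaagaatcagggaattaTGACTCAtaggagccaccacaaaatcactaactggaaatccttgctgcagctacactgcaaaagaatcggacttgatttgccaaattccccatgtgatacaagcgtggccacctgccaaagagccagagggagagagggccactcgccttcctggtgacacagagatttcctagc
PLXNA4: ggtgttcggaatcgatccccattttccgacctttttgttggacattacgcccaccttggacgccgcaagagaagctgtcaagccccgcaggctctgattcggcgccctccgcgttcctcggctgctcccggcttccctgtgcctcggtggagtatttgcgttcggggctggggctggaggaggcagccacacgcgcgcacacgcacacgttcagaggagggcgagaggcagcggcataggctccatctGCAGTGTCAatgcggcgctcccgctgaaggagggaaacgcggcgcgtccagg
EBP: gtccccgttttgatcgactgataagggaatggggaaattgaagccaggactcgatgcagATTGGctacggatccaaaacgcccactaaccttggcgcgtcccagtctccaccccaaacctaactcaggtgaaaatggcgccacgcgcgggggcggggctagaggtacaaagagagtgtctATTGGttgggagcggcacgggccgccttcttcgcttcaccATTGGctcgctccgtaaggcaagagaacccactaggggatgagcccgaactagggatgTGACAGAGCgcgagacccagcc
TMEM154: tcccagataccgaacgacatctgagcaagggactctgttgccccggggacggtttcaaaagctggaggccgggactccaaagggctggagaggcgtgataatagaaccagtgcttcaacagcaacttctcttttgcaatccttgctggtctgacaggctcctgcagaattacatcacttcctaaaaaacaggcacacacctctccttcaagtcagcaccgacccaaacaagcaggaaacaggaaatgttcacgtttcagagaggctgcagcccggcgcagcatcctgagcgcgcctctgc

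The capitals in LYST are an AP-1 motif, in PLXNA4 an antioxidant response element on the opposite strand, and in EBP 3 CCAAT boxes on the opposite strand and 1 antioxidant response element. TMEM154 held none of the motifs. The motifs searched, on both strands and with overlaps between motifs allowed, were CRE (TGACGTCA), AP-1 (TGANTCA), antioxidant response element (TGACNNNGC), sterol response element (TCACNCCAC), E-box (CACGTG), NRF1, ETS-type (CCGGAAGT), YY1 (AAGATGGCG), CCAAT box (CCAAT), TATA box (TATAAA), amino acid response (TGATGCAA) and the ER stress element. A CCAAT box was found in 9 of the 39 promoters of the larger kind (23.1%) and 6 of the 11 of the smaller (54.5%). It was in 35.7% of all 27305 RefSeq promoters and 36.9% of those of genes at the level minimum. NRF1 was found in 8 of the 39 (20.5%) and 1 of the 11 (9.09%), beside 6.28% of all promoters and 12.6% of those of genes at the level minimum. AP-1 was found in 2 of the 39 and 3 of the 11, beside 7.76% of all promoters and 4.53% at the level minimum. The antioxidant response element was found in 6 of the 39 and 3 of the 11, beside 13.6% and 15%. The E-box was found in 3 of the 39 and 3 of the 11, beside 7.43% and 10.3%. The sterol response element was found in PPIH alone (1.15% of all promoters). A match is a description of letters, not of binding.

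Of 34 gene lists, 8 held a member and 9 of the 71 genes were on a list. Those not yet named are HERC2 and LYST, on a list of 36 measured giant genes of the cytoskeleton and centrosome with medians of 0.39 in CLA18:2 and -0.16 in CLA18:3, and MYLIP, the one member among 15 LXR targets (0.20 and 0.14). No gene of the ATF4 and integrated stress response (34 measured, medians 0.53 and 0.51), proteasome subunit (35 measured, 0.62 and 0.60) or unfolded protein response gene (25 measured, 0.59 and 0.42) met the rule, and the medians of these lists had the same sign in both fatty acids. The cytosolic ribosomal protein genes (77 measured) had -0.02 and 0.29, with none past both limits.

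The limit of 0.3 fell in a dense part of the distribution. Just inside it lay XRN1 (0.32 and -0.302) and NOTCH2 (0.303 and -0.43), and just outside PPARA (0.299 and -0.31), SERINC5 (0.47 and -0.296) and FNDC3B (0.31 and -0.295). Of the smaller kind, ATP5ME (-0.306 and 0.43) and CFAP298 (-0.37 and 0.310) were just inside, and RPSAP12 (-0.299 and 0.36), TNFRSF11B (-0.91 and 0.290) and FABP5P7 (-0.288 and 0.41) just outside. At a limit of 0.2 the counts were 260 and 90, and at 0.5 they were 0 and 2. Of the 53 genes 14 had a mean under 5 CPM, and of the 18, 11 did.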

How the data were processed

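RNA from 28 samples of HT-1080 cells (7 groups of 4) was sequenced as paired ends, per the labels' protocols. The deposited values are raw counts per gene made by the authors, and the submitters' processing notes name HISAT, SAMtools, featureCounts, DESeq2 and hg38; their settings and strand are not given in the sources used here. All columns matched a sample, with 0 left over. CPM was the count divided by the column total, and the log2 difference used group means with 0.5 CPM added. Tests were edgeR 4.0.16 (R 4.3.3) quasi-likelihood on all 28 libraries with TMM scaling and filterByExpr (16325 of 60286 genes, 99.91% of counts), Benjamini-Hochberg adjusted at 0.05. They were also run on simulated data in which every group had the same spread. The real groups did not, so that run cannot tell how unequal spread affects the calls. Alternatives used DESeq2 1.42.0, limma 3.58.1, other scalings, filters and limits, a replicate block, and leaving out each library. The 3 tested comparisons share libraries. Lengths came from GENCODE release 29, promoters from RefSeq.

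The members, the gene lists and the tests were chosen with earlier results of these data known, and the lists were written from textbook knowledge. Genes were named by rank: in each direction the 12 farthest inside both limits, the leading members of each list, the 5 with the smallest p in RSL3+CLA18:2 against RSL3, and those beside the limit. The other members are named so that all are accounted for, and genes with no symbol are only counted. Counts of replicate pairs differed by more than sampling noise in every group, so no library was counted as a copy. The replicates are called independent, with no separate cultures or days given, so p-values measure only the spread between these samples. In the main fit each gene's spread was estimated over all 7 groups together, not from the 2 groups compared. The variation within a group was unequal, from 4.50% in DMSO to 15.3% in RSL3+CLA18:2 and 20.0% in CLA18:3.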

Additional observations from a re-analysis of the deposited data

Results flagged for a closer look

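Of 238 sets of 4 libraries examined (34 genes in 7 groups), 22 had a library whose gap to the nearest other was more than Dixon's 95% critical share of the group's range. Chance gives about 1 in 20 only where the values did not pick the genes. DMSO, CLA18:2 and CLA18:3 values chose the genes, and these groups held 1, 4 and 6 of the 22. RSL3 held 2, LA 4, RSL3+LA 3 and RSL3+CLA18:2 2. Some genes were also picked by p in RSL3+CLA18:2 against RSL3.

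In CLA18:2, replicate 1 stood above its group in 4 genes. LYST had 20.0 CPM there against 13.6 to 14.1 in the other 3 libraries, CHD6 34.0 against 28.3 to 29.03, ZNF573 5.26 against 3.16 to 3.39 and HERC2 37.0 against 19.1 to 21.8.

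In CLA18:3, replicate 3 had 32.0 CPM of CUTA against 1.07 to 1.40 and 5.34 CPM of LSP1P5 against 0.89 to 1.31. Replicate 1 had 2.95 CPM of MARCHF8 against 3.67 to 3.79, 63.1 CPM of PLXNA4 against 49.9 to 52.0 and 4.26 CPM of LSM14A against 3.46 to 3.55. Replicate 4 had 9.94 CPM of HERC2 against 15.002 to 15.8.

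In RSL3+CLA18:2, ZNF573 had 3.27 CPM in replicate 1 against 1.54 to 1.81 and MARCHF8 3.61 CPM in replicate 3 against 4.72 to 4.93. In RSL3+LA, replicate 1 had 2.69 CPM of LSP1P5 against 1.42 to 1.57 and 121 CPM of PLXNA4 against 98.7 to 101, and replicate 2 had 11.6 CPM of VAMP7 against 1.74 to 1.84. In RSL3, replicate 4 had 80.1 CPM of PLXNA4 against 70.3 to 70.7, and replicate 3 had 16.1 CPM of LSM14A against 4.50 to 5.87.

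In LA, ARRB1 had 13.3 CPM in replicate 2 against 11.96 to 12.2, PPIH 27.9 in replicate 3 against 24.2 to 24.6, UBE2FP1 4.49 in replicate 4 against 2.91 to 3.13 and SECISBP2L 42.4 in replicate 1 against 46.5 to 47.1. In DMSO, CUTA had 4.05 CPM in replicate 1 against 1.19 to 1.40.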

How the results depend on the processing

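The number of genes meeting the rule (53 and 18) depended on its settings. The larger kind numbered 24 with 2 CPM added, 26 with TMM scaling, 30 with DESeq2 size factors, 260 at a limit of 0.2, 0 at 0.5 and 15 after centring by transcript length, which was chosen after seeing the data. The smaller kind numbered 28 with 0.1 CPM added, 7 with 2 CPM added, 29 at a mean of 1 CPM or more, 7 at 5 CPM or more, 90 at a limit of 0.2, 2 at 0.5, 35 with TMM scaling and 28 with DESeq2 size factors. Leaving out 1 library gave 35 to 73 and 15 to 26.

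In RSL3+CLA18:2 against RSL3, leaving out 1 library gave 4359 to 4766 genes called, 7 to 12 of the 53 higher, 0 to 1 lower, and 0 to 0 of the 18 higher and 2 to 3 lower. With no filter on low counts 1 of the 53 was lower. In RSL3+LA against RSL3 the ranges were 1062 to 1509, 3 to 3, 0 to 0, 0 to 0 and 2 to 3. With no filter 1 of the 53 was lower and 1 of the 18 higher, and with only the groups compared 1 of the 53 was lower. In RSL3+CLA18:2 against RSL3+LA the ranges were 3581 to 4047, 7 to 13, 0 to 1, 0 to 1 and 0 to 2. With no filter 0 of the 18 were higher and 2 lower, with only the groups compared 0 were higher, and with DESeq2 1 was lower. The cause of these shifts was not tested. Single genes were followed only where the main fit called them, so genes that newly passed are not counted here. Of 495 such alternative values 424 still passed, 71 no longer passed and 0 changed sign.

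Among RSL3, RSL3+LA and RSL3+CLA18:2, the groups tested, no same-numbered pair's deviations correlated above 0.1 (0.00606 to 0.0669), so there the replicates are taken to share only a number; the other 4 groups were not checked. A fit with the replicate number as a block called 5090, 1847 and 3426 genes in the 3 comparisons on the groups compared, and 4983, 1592 and 4281 on all 28 libraries. On the groups compared, the block gave 5 of the 53 higher and 1 lower and 1 of the 18 higher in RSL3+LA against RSL3.

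Depth limits the genes under 5 CPM: the lowest count in a library was 6 for PDZD7 and 11 for CUTA.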
